A study of Arabidopsis thaliana with 6 samples.

Results

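The genes described here are the transposable element genes that lie near the centromeres of Arabidopsis thaliana. They were taken as every locus annotated as a transposable element gene whose start lies in a fixed window around the centromere (TAIR10). The windows ran from base 11500000 to 17700000 on chromosome 1, 1100000 to 7200000 on chromosome 2, 10300000 to 17300000 on chromosome 3, 1500000 to 6300000 on chromosome 4, and 9000000 to 16000000 on chromosome 5. Loci that the authors' assembly placed on the opposite strand of such a gene were left out, which removed 5. The rule gave 3310 of the 32594 loci in the table, and no expression value entered the choice. The windows held 518, 725, 769, 606 and 692 of them on chromosomes 1 to 5, and another 540 transposable element genes lay outside the windows.

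RNA came from untreated 14-day seedlings grown on MS plates at 22 degrees with 16 h of light and 8 h of dark, and only ribosomal RNA was removed before library preparation. There were 6 libraries, 2 for each of 3 genotypes. Col-0 is the wild type accession. In apc8-1 the mutation is in APC8, which encodes part of the anaphase promoting complex, the ubiquitin ligase that drives exit from mitosis. In nrpe1-12 it is in NRPE1, the gene for the largest subunit of RNA polymerase V. Neither the nature of the lesions nor whether the duplicates came from separate cultures is given in the sources used here. The p-values therefore measure only the spread between these libraries. Levels are FPKM, the fragments of a locus divided by its transcript length and by the mapped fragments of the library. Fold changes are differences of mean log2(FPKM + 1), which understate changes of low genes. A locus was called at a Benjamini-Hochberg adjusted p below 0.05 in the limma test over the 17802 loci that reached 1 FPKM in 2 or more libraries, and every adjusted p comes from that test.

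Pericentromeric chromatin of Arabidopsis is packed with retrotransposons and DNA transposons, most of which are kept silent by DNA methylation and by methylation of histone H3 at lysine 9. In RNA-directed DNA methylation, RNA polymerase V makes noncoding scaffold transcripts that recruit small RNAs bound by Argonaute proteins and then the methyltransferase DRM2. Long elements deep in heterochromatin are mostly methylated by MET1, CMT2 and CMT3 with the chromatin remodeler DDM1, whereas RNA-directed DNA methylation acts mainly on short elements and on the edges of long ones. The study's title connects the anaphase promoting complex with DMS3, a protein of the polymerase V pathway.

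The seedlings were rich in green tissue, with RBCS1A, a Rubisco small subunit gene, at 9870 to 15693 FPKM. RBCS1A, the Rubisco activase gene RCA and the myrosinase gene TGG1 were called higher in apc8-1 (0.45, 0.61 and 0.38) and in nrpe1-12 (0.61, 0.99 and 0.30), and the markers of flower, pollen and seed were below 1 FPKM in all 6 libraries. The 3 root markers, namely PYK10, a beta-glucosidase of the endoplasmic reticulum, NRT2.1, a nitrate transporter, and EXPA7, a root hair expansin, were each lower in all 4 mutant libraries than in Col-0. Their summed level was 670 to 693 FPKM in Col-0, 374 to 416 in apc8-1 and 489 to 535 in nrpe1-12. Nearly all of that sum is PYK10, which alone stood at 683 and 659 FPKM in Col-0. EXPA7 was at 0 in 3 mutant libraries, and the part of tissue makeup in the results below was not tested. Fewer cells of a type and less RNA per cell cannot be told apart in such whole-seedling samples. APC8 stood at 1.29 and 1.64 FPKM in wild type plants, at 1.80 and 1.93 in apc8-1 mutants, and at 1.51 and 1.48 in nrpe1-12 mutants. NRPE1 stood at 2.71 and 2.91 FPKM in wild type Col-0, at 3.04 and 3.29 in the apc8-1 libraries, and at 6.46 and 5.94 in the nrpe1-12 libraries. With the lesions unknown, these transcript levels do not check the genotype labels.

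Pericentromeric transposable element genes were mostly at or near 0. A total of 1673 of the 3310 (50.5%) were listed at 0 FPKM in all 6 libraries, 812 were above 0 in only 1 library, and 107 were above 0 in all 6. Only 56 (1.69%) were high enough to be tested, against 33 of the 540 transposable element genes outside the windows (6.11%) and 17708 of the 28739 other loci (61.6%). The mean level of the 56 ranged from 0.439 to 27.6 FPKM with a median of 3.97, below the median of 8.15 over all tested loci.

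The number of these genes with any fragment differed between libraries. It was 387 and 423 for Col-0, 574 and 932 for apc8-1, and 581 and 506 for nrpe1-12. All 4 mutant libraries were above both Col-0 libraries, and apc8-1 replicate 2 stood apart from all others. That library listed the most of them in each of the 5 windows, from 151 on chromosome 1 to 231 on chromosome 2. It did not stand apart over the other loci, of which 20960 to 21434 were above 0 in the 6 libraries. Among transposable element genes outside the windows it also listed the most, 201 against 132 to 159.

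Most of the added genes were below 0.1 FPKM. Genes above 0 but below 0.1 FPKM numbered 289 and 314 for Col-0, 435 and 756 for apc8-1, and 453 and 377 for nrpe1-12. Between 0.1 and 1 FPKM there were 54 and 65 for Col-0, 91 and 130 for apc8-1, and 76 and 77 for nrpe1-12, apc8-1 replicate 2 again the highest. Genes at 1 FPKM or more numbered 44 and 44 for Col-0, 48 and 46 for apc8-1, and 52 and 52 for nrpe1-12. At that higher level the mutant libraries were again above Col-0, nrpe1-12 the most, and apc8-1 replicate 2 did not stand out. From the steps between low values, a level of 1 FPKM corresponded to 13 to 17.4 fragments per kilobase in the 6 libraries, with 89.1 to 92.3% of the values used within 0.15 of a whole number. On the 1788 of these genes that are single exons over 1500 bases, 3 or more fragments fell on 46 and 43 genes in Col-0, 53 and 181 in the apc8-1 libraries, and 73 and 69 in nrpe1-12. The 181 belong to apc8-1 replicate 2, and replicate 1 of the same genotype lay nearer to Col-0.

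**Figure D1:**
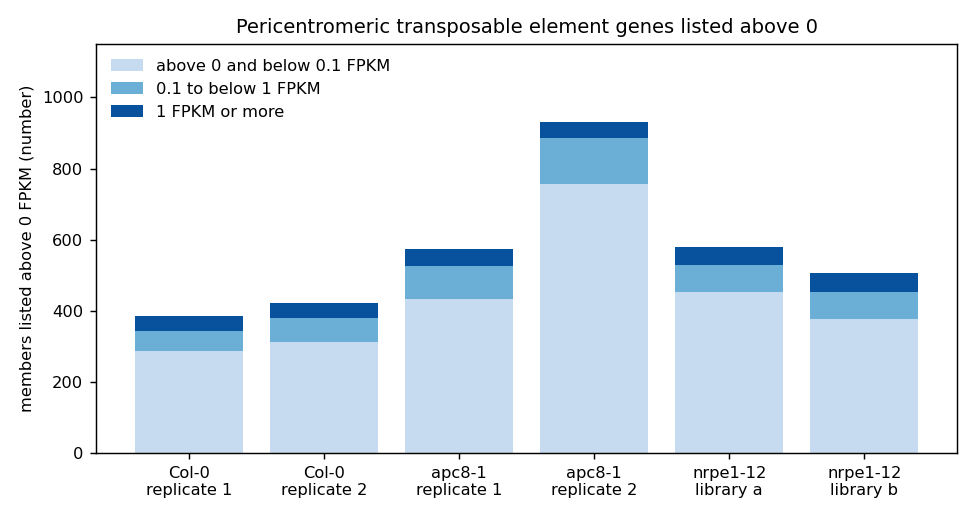
Number of pericentromeric transposable element genes listed above 0 FPKM in each library (vertical axis, from 0), stacked by level. Each bar is 1 library. The bar of apc8-1 replicate 2 reaches 932, mostly through genes below 0.1 FPKM, while the genes at 1 FPKM or more number 44 to 52 in every library.

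Some genes were seen in both libraries of a single genotype and listed at 0 in the other 4 libraries. There were 7 for Col-0, 61 for apc8-1 and 24 for nrpe1-12, out of 167, 341 and 243 above 0 in both libraries of that genotype. The apc8-1 counts rest in part on replicate 2, which listed the most members, 932. No such count over all loci is given here, so the 61 are not read as a trait of apc8-1. The 61 of apc8-1 had a highest value of 0.612 FPKM and none passed the filter for testing. The 24 of nrpe1-12 included 1 tested gene, AT5G26590, which also held their highest value, 4.49 FPKM.

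The summed level of all 3310 genes came to 271.9 and 275.3 FPKM for wild type, 298 and 348.9 for apc8-1, and 390.3 and 390.1 for nrpe1-12. The nrpe1-12 libraries were the highest and the Col-0 libraries the lowest, with no overlap between genotypes. The other loci summed to 641200 and 694600 FPKM for Col-0, 731300 and 755600 for apc8-1, and 745100 and 744500 for nrpe1-12. Col-0 was thus the lowest there as well, and lower sums in Col-0 are not particular to these genes. The means were 274 ± 2.45, 323 ± 36 and 390 ± 0.142 FPKM (SD, n = 2 each), and with 2 libraries on each side the smallest p of an exact permutation test is 0.333. Of the 117 FPKM by which nrpe1-12 exceeded Col-0, 6 genes held 86.7 (AT5G27845, AT2G04460, AT4G04293, AT5G35935, AT2G07767 and AT5G26590), and the untested genes held 9.92. Of the 49.9 FPKM by which apc8-1 exceeded Col-0, the untested genes held 22.5, and AT2G04460 took away 15.4.

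Several of the most abundant members were not called in either mutant. SADHU1-1 (AT2G10410, chromosome 2, 4005579 to 4007044) had the highest mean over the 6 libraries, at 29.4 and 30.5 FPKM in wild type plants, at 27.4 and 26.4 in apc8-1 mutants, and at 27.7 and 24.1 in nrpe1-12 mutants. Sadhu elements are short nonautonomous retroposons of Arabidopsis. The mutant libraries all lay below Col-0, but the differences of -0.15 (SE 0.08, adjusted p = 0.215) and -0.20 (SE 0.08, adjusted p = 0.110) did not pass the test. AT2G13975 (12.9 to 17.4 FPKM), AT1G35115 (11.1 to 13.9) and AT2G07683 (5.52 to 8.19) were others of the 10 highest by that mean that were not called. In nrpe1-12 itself AT2G04460 and AT5G27845 were above SADHU1-1 (means of 36.8 and 36.3 against 25.9 FPKM).

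Of the 7 Sadhu elements in the windows 4 were tested. SADHU3-2 (AT3G42658, chromosome 3, 14749400 to 14750294) stood at 0 and 0.209 FPKM in wild type Col-0, at 1.21 and 1.1 in the apc8-1 libraries, and at 0 and 0.107 in the nrpe1-12 libraries. It was high in apc8-1 only among these libraries, with no overlap, and rose there by 0.97 (SE 0.19, adjusted p = 0.00602), a call that leaving out Col-0 replicate 1 ended (adjusted p = 0.0543). It passed the filter only through apc8-1. SADHU1-3 (AT5G28626) stood at 5.58 and 5.32 FPKM in wild type plants, at 3.81 and 6.08 in apc8-1 mutants, and at 3.35 and 3.44 in nrpe1-12 mutants. Both nrpe1-12 libraries were the lowest, at a difference of -0.55 (SE 0.18, adjusted p = 0.0531) that just missed the threshold and was called in 6 of the alternatives. SADHU4-1 (AT5G28913) ranged from 2.26 to 5.23 FPKM with apc8-1 replicate 2 the highest, and was not called. SADHU9-1 and SADHU5-2 were listed at 0 in all 6 libraries, and SADHU3-1 was above 0 only in Col-0 replicate 2, at 0.0924 FPKM. MUG8 (AT5G34853), a domesticated transposase gene of the MUSTANG family, ranged from 6.46 to 7.85 FPKM and was not called.

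A group of 14 members lies in a stretch of mitochondrial DNA inserted near the centromere of chromosome 2 (3240838 to 3502301, 261 kb, taken from the first to the last locus whose annotation names a mitochondrial gene as its best match). All 14 were above 0 in all 6 libraries and 13 were tested, against 43 of the 3296 members elsewhere (1.3%). The median difference of the 13 was 0.20 in apc8-1 and 0.18 in nrpe1-12, beside 0.16 and 0.17 for the 67 tested loci of the mitochondrial genome itself. Fragments of mitochondrial transcripts cannot be told apart from those of near-identical nuclear copies. In apc8-1 the limma test called 0 of the 13, beside 14.1% higher and 16.1% lower over all tested loci. In nrpe1-12 it called AT2G07767 higher and AT2G07769 lower (7.69% each), beside 13.5% and 12.8%. At an unadjusted p below 0.05, 1 was higher and 0 lower in apc8-1, and 4 were higher and 1 lower in nrpe1-12. No share over all loci is given at that threshold, so these counts are not read as a lean.

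In nrpe1-12, some members that were near 0 in Col-0 were listed at clearly higher levels. Whether the elements themselves were transcribed was not tested. The level of AT5G27845 can include sequence beyond the annotated gene, and that of AT4G08013 can include reads of a transcript in the same span. The test called 16 of the 56 members higher (28.6%, against 13.5% of all tested loci) and 2 lower (3.57%, against 12.8%). The median difference over the 56 was 0.17, against -0.01 over all tested loci. The direction of the calls depended in part on scaling: without organelle and ribosomal RNA genes in the totals, 13 were called higher and 7 lower (65.0% of calls higher, against 88.9%), with the median of all loci at -0.12. The calls over all loci shifted as well, from 2406 higher and 2273 lower of 17802 to 1701 and 3720 of 17670. However, 7 of the 16 passed the filter only through nrpe1-12, where they are high, so the filter itself favoured their calls. Of the other 49 members 9 were called higher (18.4%). Leaving out library a, or library b, left a lone nrpe1-12 library. Fewer members were then called higher, and fewer of all loci as well. The genes that pass only through nrpe1-12 are not tested then, and AT4G04410, AT4G07507 and AT2G11240 lost their calls without either library.

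AT5G27845 (chromosome 5, 9868348 to 9872594) had the largest rise of the 56. This gene and AT4G04293 passed the filter only through nrpe1-12, where they are high, so their adjusted p-values are no separate evidence. AT5G27845 stood at 0.0130 and 0.0172 FPKM in wild type Col-0, at 0.0779 and 0.0607 in the apc8-1 libraries, and at 36.2 and 36.4 in the nrpe1-12 libraries. Both nrpe1-12 libraries were far above the other 4, and the rise was 5.20 (SE 0.13, adjusted p = 8.93e-07). Next was AT4G04293 (chromosome 4, 2076832 to 2077361), at 0.862 and 0.233 FPKM in wild type plants, at 0.612 and 0.410 in apc8-1 mutants, and at 12.3 and 10.9 in nrpe1-12 mutants. The apc8-1 values lay within the range of Col-0, and the rise in nrpe1-12 was 3.06 (SE 0.21, adjusted p = 5.68e-05).

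AT5G26590 (chromosome 5, 9381992 to 9382331) was listed at 0 in both Col-0 and both apc8-1 libraries and had 4.49 and 3.73 FPKM in nrpe1-12 (adjusted p = 6.65e-05). No fold is given against a group listed at 0. AT4G08013 is annotated at 4835509 to 4835941 on chromosome 4, in a span of 4830822 to 4843862 that 2 loci share. It stood at 0.00476 and 0.0194 FPKM in wild type Col-0 and at 0.0167 and 0.0389 in the apc8-1 libraries. In the nrpe1-12 libraries it stood at 1.91 and 1.99, a rise of 1.54 (SE 0.17, adjusted p = 4.35e-04). AT2G13860 (chromosome 2, 5809672 to 5813482) stood at 0.0146 and 0.0193 FPKM in wild type plants, at 0.0175 and 0.0340 in apc8-1 mutants, and at 1.35 and 1.36 in nrpe1-12 mutants, a rise of 1.21 (SE 0.17, adjusted p = 0.00158). In these 3 genes the nrpe1-12 libraries stood alone and the other 4 were at or near 0. All 3 passed the filter only through nrpe1-12, so the same limit holds for their adjusted p-values.

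Among the genes that passed only through nrpe1-12, AT2G04135 and AT3G29784 differed from these in having some transcript in Col-0 and little or none in apc8-1. AT2G04135 (chromosome 2, 1391930 to 1392938) stood at 0.248 and 0.554 FPKM in wild type Col-0, at 0.197 and 0 in the apc8-1 libraries, and at 2.35 and 1.82 in the nrpe1-12 libraries, where it rose by 1.14 (SE 0.20, adjusted p = 0.00429). AT3G29784 (chromosome 3, 11689481 to 11691067) gave 0.542 and 0.302 FPKM in Col-0, was listed at 0 in both apc8-1 libraries, and had 1.21 and 1.88 in nrpe1-12, where it rose by 0.83 (SE 0.20, adjusted p = 0.0176). The genotypes did not overlap in either gene, though the apc8-1 differences from Col-0 did not pass the test (adjusted p = 0.233 and 0.0957). The AT3G29784 call was lost in 3 of the 12 alternatives that gave a value.

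The members called lower in nrpe1-12 were AT2G07769, in the mitochondrial insertion, and AT3G42806. AT2G07769 (chromosome 2, 3275010 to 3275362) stood at 4.46 and 5.56 FPKM in wild type plants, at 6.12 and 3.91 in apc8-1 mutants, and at 2.72 and 1.69 in nrpe1-12 mutants, where it fell by 0.92 (SE 0.22, adjusted p = 0.0176). AT2G07767, the insertion's member called higher, stood at 15.5 and 16.3 FPKM in wild type Col-0, at 17.2 and 20.3 in the apc8-1 libraries, and at 21.0 and 23.4 in the nrpe1-12 libraries (difference 0.46, SE 0.10, adjusted p = 0.0117). Each call was lost on leaving out either of 2 libraries (Col-0 replicate 2 or library b for AT2G07769, Col-0 replicate 1 or library b for AT2G07767), and that of AT2G07769 also without a filter on low values. Without Col-0 replicate 1, without Col-0 replicate 2, or without library a, 1 member in all was called lower in nrpe1-12.

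In apc8-1 most of the members called higher were already transcribed in Col-0. The test called 10 of the 56 members higher (17.9%, against 14.1% of all tested loci) and 1 lower (1.79%, against 16.1%), with a median difference of 0.15 against 0.01 over all tested loci. Without Col-0 replicate 1, or without apc8-1 replicate 2, 6 were called higher, and without apc8-1 replicate 2 the members called lower numbered 2. AT5G35935 changed the most among those called higher. It is annotated at 14083388 to 14089891 on chromosome 5, in a span of 14075613 to 14089991 that 2 loci share. It stood at 0.109 and 0.452 FPKM in wild type plants, at 3.43 and 2.93 in apc8-1 mutants, and at 8.18 and 9.03 in nrpe1-12 mutants. The 3 genotypes did not overlap, with apc8-1 between Col-0 and nrpe1-12. Its rise over Col-0 was 1.72 in apc8-1 (SE 0.17, adjusted p = 2.13e-04), and that of nrpe1-12 was 2.92 (SE 0.17, adjusted p = 2.54e-05), while apc8-1 was lower than nrpe1-12 by 1.20 (adjusted p = 0.00216).

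Several members rose in both mutants, which are compared with the same Col-0 libraries. AT5G35777 (chromosome 5, 13949099 to 13953802) stood at 1.16 and 1.18 FPKM in wild type Col-0, at 3.28 and 3.42 in the apc8-1 libraries, and at 3 and 2.56 in the nrpe1-12 libraries. All mutant libraries were above Col-0, by 1.00 in apc8-1 (SE 0.13, adjusted p = 0.00106) and, for nrpe1-12, by 0.80 (SE 0.13, adjusted p = 0.00361). AT1G35612 (chromosome 1, 13145610 to 13146856) stood at 9.10 and 8.07 FPKM in wild type plants, at 16.2 and 15 in apc8-1 mutants, and at 11.2 and 13.3 in nrpe1-12 mutants, with differences of 0.79 (adjusted p = 0.00116) and 0.46 (adjusted p = 0.0163). AT4G04410 is annotated at 2189515 to 2193763 on chromosome 4, in a span of 2181209 to 2194313 that 3 loci share. It stood at 3.42 and 2.59 FPKM in wild type Col-0, at 6.61 and 5.24 in the apc8-1 libraries, and at 4.99 and 5.33 in the nrpe1-12 libraries. Its differences were 0.79 (adjusted p = 0.00539) and 0.63 (adjusted p = 0.0171). In each of these genes both mutants lay above Col-0 without overlap. Of the rises in nrpe1-12, that of AT1G35612 was lost without Col-0 replicate 2 and without library b, and that of AT4G04410 in 4 of 16 alternatives.

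The remaining members called higher in both mutants were AT2G07080, AT4G07507 and AT2G11240. AT2G07080 stood at 5.34 and 4.88 FPKM in wild type plants, at 8.24 and 8.11 in apc8-1 mutants, and at 8.25 and 6.3 in nrpe1-12 mutants. AT4G07507 stood at 4.02 and 4.67 FPKM in wild type Col-0, at 6.27 and 6.69 in the apc8-1 libraries, and at 6.04 and 6.34 in the nrpe1-12 libraries. AT2G11240 stood at 16.2 and 16.2 FPKM in wild type plants, at 19.5 and 20.7 in apc8-1 mutants, and at 19.4 and 19.2 in nrpe1-12 mutants. Their differences were 0.59, 0.49 and 0.29 in apc8-1 (adjusted p = 0.0112, 0.0131 and 0.0194) and 0.43, 0.43 and 0.24 in nrpe1-12 (adjusted p = 0.0451, 0.0249 and 0.0490). Of the members' nrpe1-12 calls these were lost most often, in 9, 5 and 11 of 16 alternatives, while their apc8-1 calls were lost in 1, 2 and 5 of 17. AT5G27250 was called only in apc8-1, from 3.25 and 3.51 FPKM in Col-0 to 4.92 and 5.31 (difference 0.48, adjusted p = 0.0151, lost in 3 of 16 alternatives), beside 4.02 and 4.23 in nrpe1-12, for which neither the difference from Col-0 nor that from apc8-1 passed the test (adjusted p = 0.191 and 0.175).

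**Figure D2:**
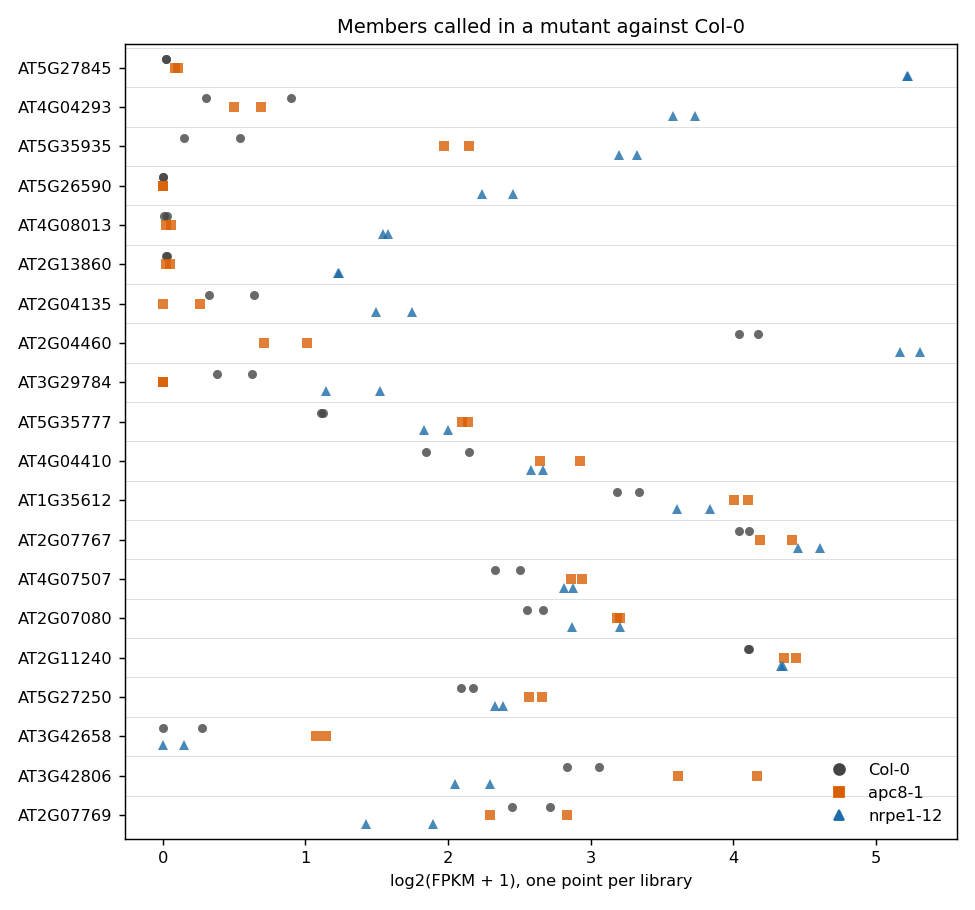
Level of each member called in a mutant against Col-0, on the log2(FPKM + 1) scale (horizontal axis), 1 point for each library, coloured by genotype. AT5G27845, AT4G04293 and AT5G26590 are near 0 in Col-0 and apc8-1 and high in nrpe1-12, AT5G35935 is ordered Col-0, apc8-1, nrpe1-12, and AT2G04460 falls to about 1 FPKM in apc8-1.

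AT2G04460 and AT3G42806 moved in opposite directions in the mutants. AT2G04460 (chromosome 2, 1547508 to 1549265) stood at 15.5 and 17.0 FPKM in wild type Col-0, at 0.633 and 1.02 in the apc8-1 libraries, and at 38.6 and 35.0 in the nrpe1-12 libraries. It was lowest in apc8-1 and highest in nrpe1-12 with no overlap, at differences from Col-0 of -3.25 (SE 0.12, adjusted p = 2.63e-06) and 1.13 (SE 0.12, adjusted p = 4.47e-04). AT3G42806 (chromosome 3, 14914008 to 14919122) stood at 7.34 and 6.12 FPKM in wild type plants, at 11.3 and 17.0 in apc8-1 mutants, and at 3.14 and 3.89 in nrpe1-12 mutants. It was highest in apc8-1 and lowest in nrpe1-12, again with no overlap, at differences of 0.95 (SE 0.19, adjusted p = 0.00652) and -0.78 (SE 0.19, adjusted p = 0.0178). Its fall in nrpe1-12 was lost in 3 of 16 alternatives, whereas its rise in apc8-1 was kept in all 17.

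The direct comparison of the mutants called 3 of the 56 members higher in apc8-1 than in nrpe1-12 (5.36%, against 7.26% of all tested loci) and 9 lower (16.1%, against 11.4%). Of the 9, 7 passed the filter only through nrpe1-12, and of the other 49 members 2 were lower (4.08%). The higher ones were AT3G42806 (1.72, adjusted p = 6.72e-04), SADHU3-2 (AT3G42658, 1.04, adjusted p = 0.00765) and AT2G07769 (0.90, adjusted p = 0.0256). The lower ones were the 7 genes that passed only through nrpe1-12 (differences from -5.13 for AT5G27845 to -1.20 for AT2G13860), AT2G04460 (-4.38, adjusted p = 1.53e-06) and AT5G35935. Without library a, or without library b, 2 were called lower.

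The members called lay in all 5 windows. The 27 tested members of chromosome 2 include the 13 of the mitochondrial insertion, and 6 of the 27 were called higher in nrpe1-12. Of the 5 tested on chromosome 4, 4 were called higher in nrpe1-12, as were 4 of 11 on chromosome 5, 1 of 7 on chromosome 3 and 1 of 6 on chromosome 1, against 13.5% of all tested loci. Those that passed the filter only through nrpe1-12 were AT4G04293 and AT4G08013 on chromosome 4, AT5G27845 and AT5G26590 on chromosome 5, AT2G04135 and AT2G13860 on chromosome 2, and AT3G29784 on chromosome 3. In apc8-1 the members called higher numbered 1, 2, 2, 2 and 3 on chromosomes 1 to 5. The summed level of the chromosome 5 window came to 28.6 and 28.9 FPKM for wild type, 38.3 and 46.5 for apc8-1, and 79.4 and 82.5 for nrpe1-12, and AT5G27845 alone held 36.2 and 36.4 of the last pair. At each of the 10 window edges, the nearest transposable element gene above 0 in any library was taken on each side. These lay 3.58 to 282 kb inside and 2.41 to 259 kb outside. Those inside had 0 to 0.209 FPKM and those outside 0 to 0.342, and none of these 20 was tested.

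**Figure D3:**
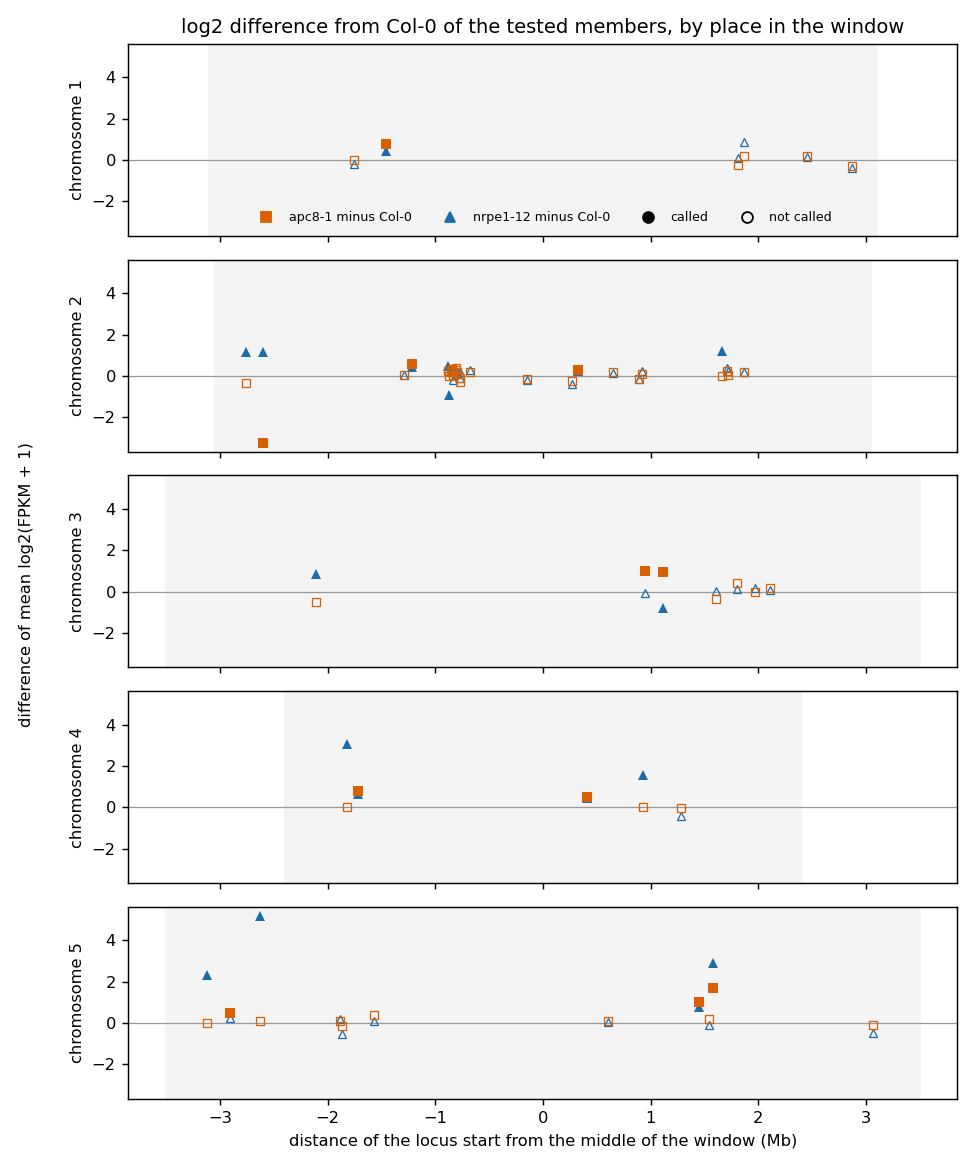
Difference of mean log2(FPKM + 1) from Col-0 (vertical axis) for each tested member against its distance from the middle of its window in Mb (horizontal axis), with 1 panel for each chromosome. Filled symbols are called members and open symbols are not. The called members are spread along the windows, and the rise of AT5G27845 in nrpe1-12 is 5.20.

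Outside the windows, the test called 3 of the 33 tested transposable element genes higher in apc8-1 (9.09%) and 3 higher in nrpe1-12 (9.09%), beside 17.9% and 28.6% of the members. The member shares include genes that passed the filter only through the mutant, and without those they were 16.7% in apc8-1 and 18.4% in nrpe1-12. Any such genes outside the windows were not taken out of the shares there, so these shares are not on the same footing. The difference between the shares inside and outside the windows was not tested.

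Some called members lay beside loci that were called the same way. Of the 16 members called higher in nrpe1-12, 11 had a tested locus within 5 kb and 5 had one called higher as well. Of the 32 tested members not called higher there that had such a locus, 15 had one called higher. For the 10 called higher in apc8-1 these counts were 7 and 3, beside 13 of 36 for the members not called higher. The difference between called members and the others was not tested. The locus of AT5G27850, a gene for a ribosomal protein of the L18e/L15 family, lies 272 bases beyond the assembled locus of AT5G27845 on the same strand. The annotated gene AT5G27845 ends at 9871836, before the end of its locus at 9872594. AT5G27850 stood at 67.9 and 65.0 FPKM in wild type Col-0, at 86.9 and 75.6 in the apc8-1 libraries, and at 342 and 323 in the nrpe1-12 libraries, where it rose by 2.31 (adjusted p = 2.53e-06). Its difference in apc8-1 was 0.28 (adjusted p = 0.0256), a call lost in 6 alternatives. The nrpe1-12 libraries were well above the other 4, as at AT5G27845 itself. AT5G27860, on the other strand in the same span, had 32.1 to 37.1 FPKM in all 6 libraries and was not called.

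An unannotated locus 463 bases from AT2G04135 stood at 7.44 and 9.26 FPKM in wild type plants, at 0.462 and 2.33 in apc8-1 mutants, and at 32.7 and 33.5 in nrpe1-12 mutants. Its order of genotypes was that of AT2G04135, and its differences of -2.08 in apc8-1 (adjusted p = 0.00199) and 1.87 in nrpe1-12 (adjusted p = 0.00378) both passed the test. An assembled transcript on the opposite strand of AT4G08020 shares the span of AT4G08013. It stood at 1.74 and 0.975 FPKM in wild type Col-0, at 3.48 and 1.94 in the apc8-1 libraries, and at 33.0 and 43.2 in the nrpe1-12 libraries. No source gives the strand of counting, so reads of the transcripts in this span may not be separable. AT4G04409, a histone pseudogene in the span of AT4G04410, rose in both mutants as that member did (0.69 and 0.71, adjusted p = 0.0167 and 0.0170). G6PD1 (AT5G35790), a glucose-6-phosphate dehydrogenase gene 2888 bases from AT5G35777, rose in both as well, from 55.3 and 56.5 FPKM in Col-0 to 79.7 and 82.7 in apc8-1 and 77.8 and 80.8 in nrpe1-12.

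**Figure D4:**
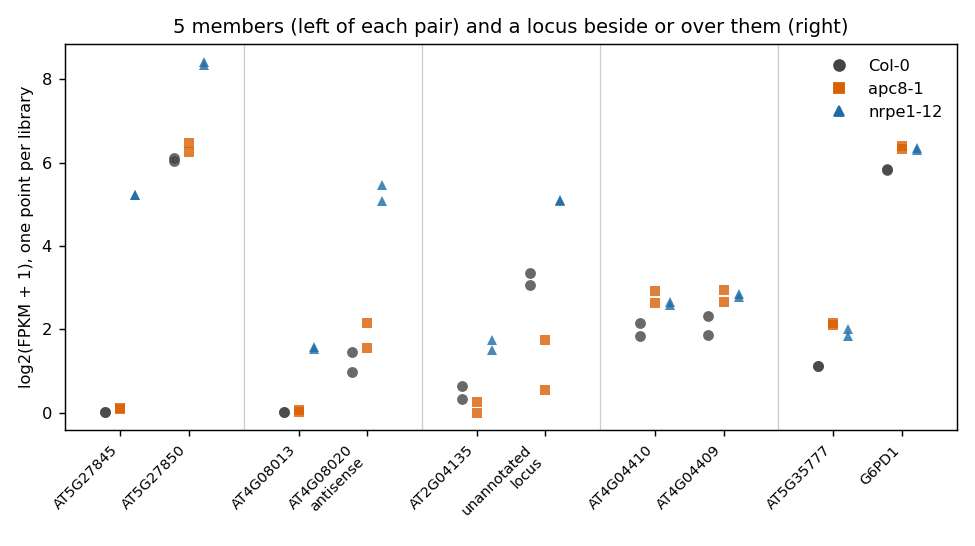
Level of 5 members (left of each pair) and of a locus beside or over each (right) on the log2(FPKM + 1) scale, 1 point for each library, coloured by genotype. At AT5G27845 and AT5G27850, and at AT4G08013 and the transcript that shares its span, the nrpe1-12 points are above the others in both loci of the pair.

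The assembly's class code did not mark the transcript as a match to the annotated gene for 29 members, 21 of them tested. Their level can include sequence beyond the element. AT2G04460, AT5G35935, AT5G35777, AT1G35612, AT4G04410, AT3G29784 and AT5G27250 are among these. With the 35 tested members coded as a match, 5 were called higher and 0 lower in apc8-1, and 10 higher and 2 lower in nrpe1-12. A matching code does not mean equal ends. The locus of AT4G07507 ran to 4312000 and its annotated gene to 4310671, and that of AT5G27845 to 9872594 and 9871836. The level of members coded as a match can therefore also include sequence beyond the element.

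Genes of the silencing machinery were mostly not called. Of 25 such genes 24 were in the table and 22 were tested. In apc8-1, where 14.1% of all tested loci were called higher, 6 were, namely the maintenance methyltransferase MET1 (from 5.74 and 5.25 to 7.60 and 7.58 FPKM), its cofactor VIM1 (from 7.55 and 7.42 to 11.2 and 11.2), the de novo methyltransferase DRM2 (from 3.76 and 3.87 to 5.22 and 5.28), the histone methyltransferase SUVH4, the chromatin ATPase MORC6 and RDM1, a partner of DMS3. Leaving out 1 library at a time gave 1 to 5 such calls. In nrpe1-12, where 13.5% of all tested loci were called higher, 3 of the 22 were, namely NRPE1, MORC6 and SUVH6, and leaving out 1 library gave 1 to 3. The limma test called 0 lower in either mutant, beside 16.1% of all tested loci in apc8-1 and 12.8% in nrpe1-12. At an unadjusted p below 0.05, 0 were lower too, and no share over all loci is given at that threshold. Without organelle and ribosomal RNA genes in the totals, 3 of the 22 were called higher in apc8-1 and 2 in nrpe1-12. Over all 17670 loci tested then, 1747 and 1701 were.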

How the data were processed

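Per the submitters' processing notes, TopHat2 2.0.13, Cufflinks 2.2.1, Cuffnorm 2.2.1 and TAIR10 were used, and the authors deposited FPKM per library and locus. Strandedness and the handling of fragments that map to several places, which bears on repeats, are not given in the sources used here. No fragment totals come with the values. The nrpe1-12 columns share a name and are numbered nowhere; library a is the first of them in the table.

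From the FPKM, log2(FPKM + 1) was tested with limma 3.58.1 in R 4.3.3 (eBayes, trend on mean level). All 6 libraries entered a single fit, and 17802 loci reaching 1 FPKM in 2 or more libraries were kept. Residual degrees of freedom were 3 and prior ones 4.93. P-values were adjusted over all of them. The procedure was tested on simulated data.

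Names came from RefSeq, which matched all 3310 members and gave 8 a symbol. Element families could not be read from the annotation. Starts are 1-based. Named genes were those called in either mutant (up to 10 per direction), the most called between mutants (up to 5 per direction), the 10 highest, those listed at 0 in a genotype, Sadhu elements, loci at window edges and 4 chosen by name. The members, lists and rules were chosen with earlier results of these data known.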

Additional observations from a re-analysis of the deposited data

Results flagged for a closer look

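AT2G04460 and AT3G42806 moved in opposite directions in the 2 mutants, and the test of apc8-1 against nrpe1-12 gave differences of -4.38 (adjusted p = 1.53e-06) and 1.72 (adjusted p = 6.72e-04) on the log2(FPKM + 1) scale.

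Transcripts assembled on the opposite strand of transposable element genes, 5 loci, were left out of the 3310 members. Over all tested loci 14.1% were called higher and 16.1% lower in apc8-1, and 13.5% and 12.8% in nrpe1-12. The locus opposite AT2G15060 passed the filter only through Col-0 and that opposite AT5G34790 only through apc8-1, where each is high. Their adjusted p-values are therefore no separate evidence. The locus opposite AT2G15060 was lower in both mutants, with differences of -1.23 in apc8-1 (adjusted p = 0.00517) and -1.0 in nrpe1-12 (adjusted p = 0.0147), from 1.80 and 1.29 FPKM in its wild type libraries. The locus opposite AT4G08020 rose by 4.06 in nrpe1-12. The locus opposite AT5G34790 rose by 0.99 in apc8-1, from 0.780 and 0.535 FPKM to 1.99 and 2.6. The locus opposite AT5G38870 rose by 0.91 in apc8-1 and by 0.64 in nrpe1-12, from 1.98 and 2.56 FPKM in its wild type libraries to 5.19 and 5.08 in apc8-1 and 3.59 and 4.65 in nrpe1-12. The member AT5G38870 itself stood at 0.860 and 1.12 FPKM in wild type plants, at 1.03 and 0.754 in apc8-1 mutants, and at 0.314 and 0.524 in nrpe1-12 mutants, and was not called. The strand of counting is not stated, so these pairs may share reads.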

How the results depend on the processing

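No called fold change reversed under any alternative run. Of the values of called results, 734 stayed on the same side of their threshold and 72 did not, and of uncalled results 14 passed it and 609 did not. Leaving out 1 library gave 6 to 10 members higher and 1 to 2 lower in apc8-1, 4 to 15 higher and 1 to 3 lower in nrpe1-12, and 2 to 3 higher and 2 to 10 lower in apc8-1 against nrpe1-12, with a lone library assumed to vary like the others. The balance of calls in apc8-1 against nrpe1-12 turned from 3 higher and 9 lower to 3 and 2 without library a, and was 2 and 2 without library b. In apc8-1, 2 were lower with a pseudocount of 0.1 FPKM and 2 without a filter. In nrpe1-12, a filter of 5 FPKM left 25 tested members and 10 higher, beside 2278 higher of all 12222 loci tested then. No intensity trend gave 4 members lower there, beside 1999 of 17802 loci. Rescaling without organelle and ribosomal RNA genes gave 13 higher and 7 lower (65.0% higher, against 88.9%), and moved the median of all loci to -0.12, and to -0.07 in apc8-1. Over all 17670 loci tested then, 1701 were called higher and 3720 lower in nrpe1-12. In apc8-1 against nrpe1-12, 4 were lower with the filter of 5 FPKM and 5 with a mean of 1 FPKM. Causes were not tested.

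Same-numbered Col-0 and apc8-1 libraries did not deviate together (r = -0.06 across 17802 loci). The values thus give no ground to pair them, but cannot show whether they were grown or prepared together. With the replicate block, 9 members were higher and 1 lower in apc8-1, with the AT2G11240 call lost, 2 silencing genes instead of 6 were called, and the nrpe1-12 columns carry no numbers to pair. Chosen after seeing the data, leaving out members whose transcript is not coded as a match gave 5 higher and 0 lower in apc8-1 and 10 higher in nrpe1-12. Leaving out members that share a span gave 6 higher in apc8-1, and leaving out the mitochondrial insertion 1 lower in nrpe1-12. Only 56 of 3310 members reached the 1 FPKM filter, so nothing is said of changes in the rest.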
